A study of Mus musculus with 4 samples.

Results

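Complement is a cascade of plasma and tissue proteins that tags material for removal and calls in phagocytes. In its classical arm the recognition protein C1q works with the proteases C1r and C1s. Of these, C1s cleaves C4 and C2 and so leads to cleavage of C3, the component on which all arms of the cascade converge. Fragments of C3 and C5 then act through receptors on myeloid cells, and C1 inhibitor (Serping1) holds the first proteases back. In the brain, C1q is known as a product of microglia and macrophages, and C3 as a gene that reactive astrocytes and myeloid cells can switch on.

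The values below describe 9 complement genes of the 32285 genes in the files. They were chosen by name, with earlier results of these data known. They are the C1q chain genes C1qa, C1qb and C1qc, the protease gene C1ra, the components C3 and C4b, the inhibitor Serping1, and the receptor genes C3ar1 and C5ar1. RNA was measured with Visium, which captures messenger RNA on barcoded spots under a thin tissue slice, and each spot can hold several cells of different types. The 8 slices, each from 1 mouse, came from wild-type (WT) brain at rest (1) and at 2 (1), 7 (2) and 21 (2) days after photothrombotic injury (dpi), and from Cthrc1(creER); R26(DTA) mice at 21 dpi (2). Photothrombotic injury is a light-induced clotting of cortical vessels that leaves a small infarct. In the last group, called deleter, the Cthrc1 promoter drives a tamoxifen-inducible Cre that switches on diphtheria toxin A in Cthrc1-expressing cells. The study set these slices aside because deletion could not be seen. The adult mice were of both sexes, and the labels give no age or sex per slice.

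Each capture area held 2 slices. Rest and 2 dpi shared an area, and the slices at 7 dpi, the WT slices at 21 dpi and the deleter slices each filled an area of their own, so these groups cannot be told apart from their areas. The labels do not say which slice of the first area is at rest. The 1017-spot piece was taken as rest and the 1726-spot piece as 2 dpi because of their outlines in the published picture, not because of their expression. All WT slices at rest, 2 and 7 dpi and deleter slice 1 held Xist RNA, whereas both WT slices at 21 dpi and deleter slice 2 held Ddx3y RNA, so the WT time comparison also runs between sexes. Slices held 11332780 to 23677298 unique molecular identifiers (UMIs, single captured RNA molecules).

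Spots were split into 3 zones by Col1a1, the gene of a fibrillar collagen made by fibroblasts. Fibrotic spots had at least 5 Col1a1 UMIs per 10000, near spots lay 1 to 3 steps from a fibrotic spot on the hexagonal array, and the remainder are called other spots. Of 9340 spots, 1373 were fibrotic and 2343 were near. The slice at rest had 3 fibrotic spots, too few for a value. The slice at 2 dpi had 26, of which 17 carried a single Col1a1 UMI, and its near spots were poor in RNA (median 1181.5 UMIs, against 9671 in its other spots). The 4 WT slices at 7 and 21 dpi had 112, 392, 170 and 203 fibrotic spots, and the deleter slices had 193 and 274. Marker genes described the zones. Because Col1a1 set them, the sum of fibroblast markers was in part fixed in advance and is no check of the zones. Summed over 6 fibroblast markers, of which Col1a1 is one, the 4 WT slices at 7 and 21 dpi held 52.2 to 118 UMIs per 10000 in fibrotic spots, 5.81 to 7.45 in near spots and 1.44 to 2.19 in other spots. All 6 neuronal markers were lower in fibrotic than in other spots.

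**Figure D1:**
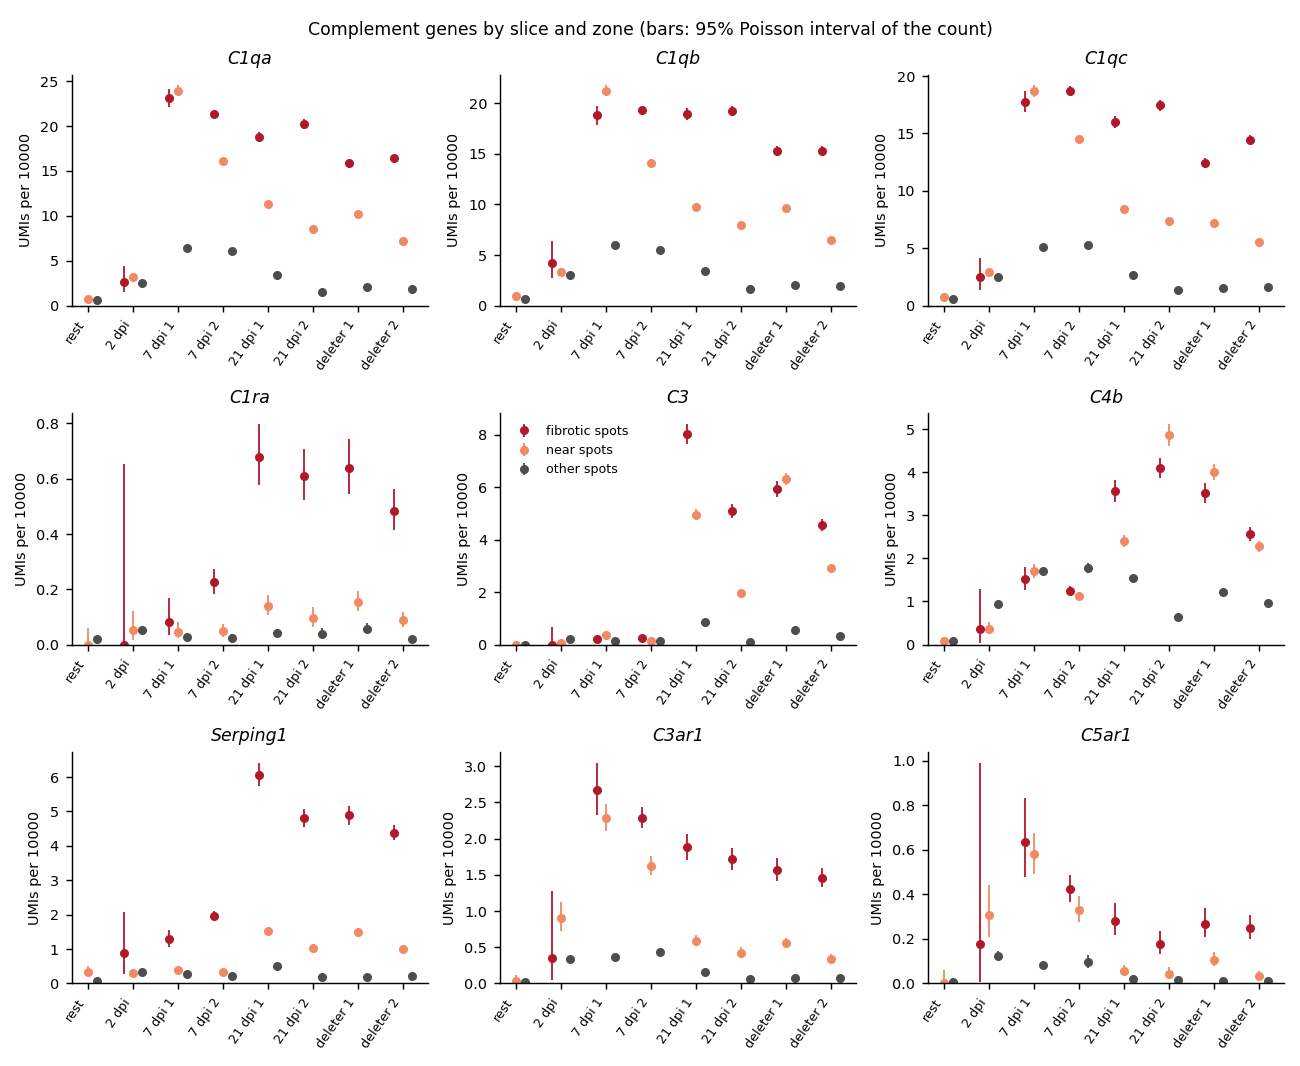
UMIs per 10000 (y axis, linear from 0) of each complement gene in the 8 slices (x axis), in fibrotic (dark red), near (orange) and other (grey) spots. Points are zone sums and bars 95% Poisson intervals of the count; zones of fewer than 5 spots are left out. C3 stands at 8.02 and 5.10 in the fibrotic spots of the WT slices at 21 dpi against 0.201 and 0.248 at 7 dpi, while C1qa lies between 18.8 and 23.1 in all 4.

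The first question was where complement RNA lay relative to fibrosis. Over the 4 WT slices at 7 and 21 dpi, all 9 genes were called higher in fibrotic than in other spots, C4b with a call that 4 other settings lost and with lower levels in fibrosis in both slices at 7 dpi. The zone sums were compared by the quasi-likelihood test of edgeR with the slice as a block and Benjamini-Hochberg adjustment over 14576 genes. Of all genes tested, 31.4% were higher in this comparison, so the count of members alone says little. The median log2 fold change was 2.58 over the 9 genes and -0.03 over all genes. In near against other spots, 8 of 9 were higher (14.6% of all genes), and in fibrotic against near spots 7 of 9 (21.2% of all genes), of which 4 were called without 7 dpi slice 2. In bulk sums such as these, fewer cells of a type and less RNA per cell cannot be told apart. The 2 slices of a group differed in more than animal. The deleter slices differed in sex, by Xist and Ddx3y. Choroid plexus markers differed too, with sums in other spots of 78.6 and 2.77 UMIs per 10000 at 7 dpi. In the WT slices at 21 dpi these sums were 166 and 3.73. Their part in the zone differences was not tested. The p-values measure only the spread between these slices, in the zone fit that of their zone differences.

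C1qa, C1qb and C1qc encode the 3 chains of C1q, which binds the surface to be tagged. The genes lie side by side on the minus strand of chromosome 4, within chr4:136880129-136898803 (GRCm38), a stretch of 18675 bases. Their RNA was rich in and around fibrosis. In fibrotic spots, C1qa stood at 23.1 and 21.3 UMIs per 10000 in the slices at 7 dpi and at 18.8 and 20.2 in the WT slices at 21 dpi. Other spots held 6.38 and 6.05 at the earlier time, and 3.39 and 1.51 at the later. All 4 slices were thus higher in fibrotic than in other spots, by 3.63- and 3.52-fold at 7 dpi and by 5.55- and 13.4-fold at 21 dpi. The fitted log2 difference was 2.51 (SE 0.17, edgeR adjusted p = 5.97e-07) for C1qa, 2.41 (SE 0.16) for C1qb and 2.49 (SE 0.16) for C1qc. Against near spots the differences were smaller, at 0.65 (SE 0.16, adjusted p = 0.00878), 0.69 (SE 0.16, adjusted p = 0.00463) and 0.68 (SE 0.15, adjusted p = 0.00394). These calls did not hold without 7 dpi slice 2. They are means over unequal times. The fitted differences were 0.22 (SE 0.23), 0.18 (SE 0.22) and 0.19 (SE 0.21) at 7 dpi. At 21 dpi they were 1.08 (SE 0.23), 1.19 (SE 0.22) and 1.16 (SE 0.21). In 7 dpi slice 1 all 3 genes were lower in fibrotic than in near spots (0.966-, 0.886- and 0.951-fold).

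The 3 chains kept nearly fixed proportions. In the 18 zone sums of the injured slices at 7 and 21 dpi, C1qa made up 33.3 to 38.8% of the C1q UMIs, C1qb 31.5 to 36.7% and C1qc 26.7 to 32.4%. Over 23 slice and zone sums, Pearson's r of log2(UMIs per 10000 + 0.1) was 0.997 for C1qa with C1qc and 0.995 for C1qa with C1qb. These sums share slices and sequencing depth. Outside C1q, the genes most like C1qa and C1qb were Csf1r, the receptor for the myeloid growth factor CSF1 (r = 0.992 with C1qa), and for C1qc Mpeg1, a pore-forming protein of macrophages (r = 0.992).

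Marker genes of 2 myeloid cell types moved with C1q in fibrotic against other spots, but not both did in fibrotic against near spots. Of 7 microglia markers 6 were higher in fibrotic than in other spots, and of 7 macrophage markers all were, beside 31.4% of all genes. In fibrotic against near spots all 7 macrophage markers were higher. Of the microglia list, 2 were higher and Siglech was lower, with a median log2 fold change of -0.04. Of all genes, 21.2% were higher and 22% lower there. Summed, the microglia markers spanned 14.3 to 26 UMIs per 10000 in fibrotic and 3.19 to 9.46 in other spots of the 4 WT slices, and the macrophage markers 49.9 to 95.2 and 2.13 to 7.61. Their part in the C1q result was not tested. For every 100 UMIs of both lists together there were 78.6 and 68.2 C1q UMIs in fibrotic spots at 7 dpi and 49.0 and 57.4 at 21 dpi. Near spots held 105, 97.3, 98.8 and 101 in the same order of slices. Per UMI of the pooled lists, C1q was thus lower in fibrotic than in near spots of every injured slice at 7 and 21 dpi. The deleter slices were included (47.2 and 54.1 against 87.7 and 91.7). Per UMI of the microglia list alone, the direction was reversed in all of these slices. In WT slice 1 at 21 dpi, fibrotic spots held 12010 C1q and 3195 microglia marker UMIs, and near spots 13244 and 4745. The ratio thus depends on the list and is no measure per cell.

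Because the C1q genes moved together, 1 promoter of the set is shown. The 250 bases before the RefSeq start of C1qb (chr4:136886201-136886450, GRCm38.p6, minus strand) are printed 5′ to 3′ with the motif matches in capitals.
C1qb: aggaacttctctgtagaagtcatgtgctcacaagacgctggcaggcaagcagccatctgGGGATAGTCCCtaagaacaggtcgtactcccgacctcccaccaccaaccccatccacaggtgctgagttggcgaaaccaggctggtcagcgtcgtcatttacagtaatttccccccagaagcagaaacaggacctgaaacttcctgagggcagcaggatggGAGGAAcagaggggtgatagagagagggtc
The first run in capitals holds 2 matches to the NF-kB motif, searched as GGGA and CC with any 4 bases between them, 1 on each strand and overlapping by all but a base at either end. The second is the core motif of the myeloid factor PU.1, GAGGAA, at bases 30 to 25 before the start. On either strand, 17.6% of the 32851 promoter windows of this length in the reference hold the first motif and 23.3% the second. The window is cut at the RefSeq start, and where the gene annotation starts a gene further upstream it covers part of the gene. That applies to 151 of the 250 bases of the C1qc window, 216 of C1ra, 202 of C5ar1 and 4 of C3ar1, and to none of C1qb and C3. The C1qc window holds 1 match to each motif. Those of C1ra, C3ar1 and C5ar1 hold none of the 4 motifs searched, and no window of the 6 members in the reference table holds the GAS motif TTCNNNGAA (7.02% of all windows) or the interferon response motif, GAAA and GAAA with any 2 bases between (2.98%). A match is a run of letters and no evidence of binding.

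The course of C1q with distance was not alike at both times, as a description without a test. In the slices at 7 dpi, C1qa did not fall steadily over the first steps. Slice 1 held 23.1 UMIs per 10000 in fibrotic spots, 27.7 at 1 step, 28.0 at 2 steps and 16.1 at 3 steps. Slice 2 held 21.3, 14.6, 17.8 and 16.9. At 21 dpi the level dropped with each step, from 18.8 over 17.1 and 9.64 to 6.09 in WT slice 1 and from 20.2 over 13.2 and 5.74 to 3.87 in WT slice 2. Over all near spots, C1qa was 24.0 and 16.1 at 7 dpi against 11.3 and 8.59 at 21 dpi, with no overlap. The edgeR comparison of near spots at 21 against 7 dpi gave a log2 fold change of -1.04 (SE 0.27, adjusted p = 0.0815) for C1qa and -1.03 (SE 0.26, adjusted p = 0.0770) for C1qb, which did not pass, and -1.10 (SE 0.23, adjusted p = 0.0384) for C1qc, which did. Without 7 dpi slice 2 the first 2 passed as well (adjusted p = 0.0354 and 0.0282). The C1qc call was lost with 5 of the other settings tried, among them without 7 dpi slice 1 and without either WT slice at 21 dpi, and its adjusted p then reached 0.257. Of 7 microglia markers, 2 fell in the same spots, Cx3cr1 among them, beside 3.28% of all genes. The summed list was 30.3 and 18.7 per 10000 at 7 dpi and 10.5 and 9.79 at 21 dpi, and its part in the C1q values was not tested.

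In fibrotic spots, by contrast, no C1q gene passed the test between the times. The log2 fold changes at 21 against 7 dpi were -0.19 (SE 0.15) for C1qa, 0.00 (SE 0.15) for C1qb and -0.13 (SE 0.15) for C1qc, and their edgeR adjusted p-values were 0.616, 0.996 and 0.750 in that order. For C1qb the sign depended on the setting.

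**Figure D2:**
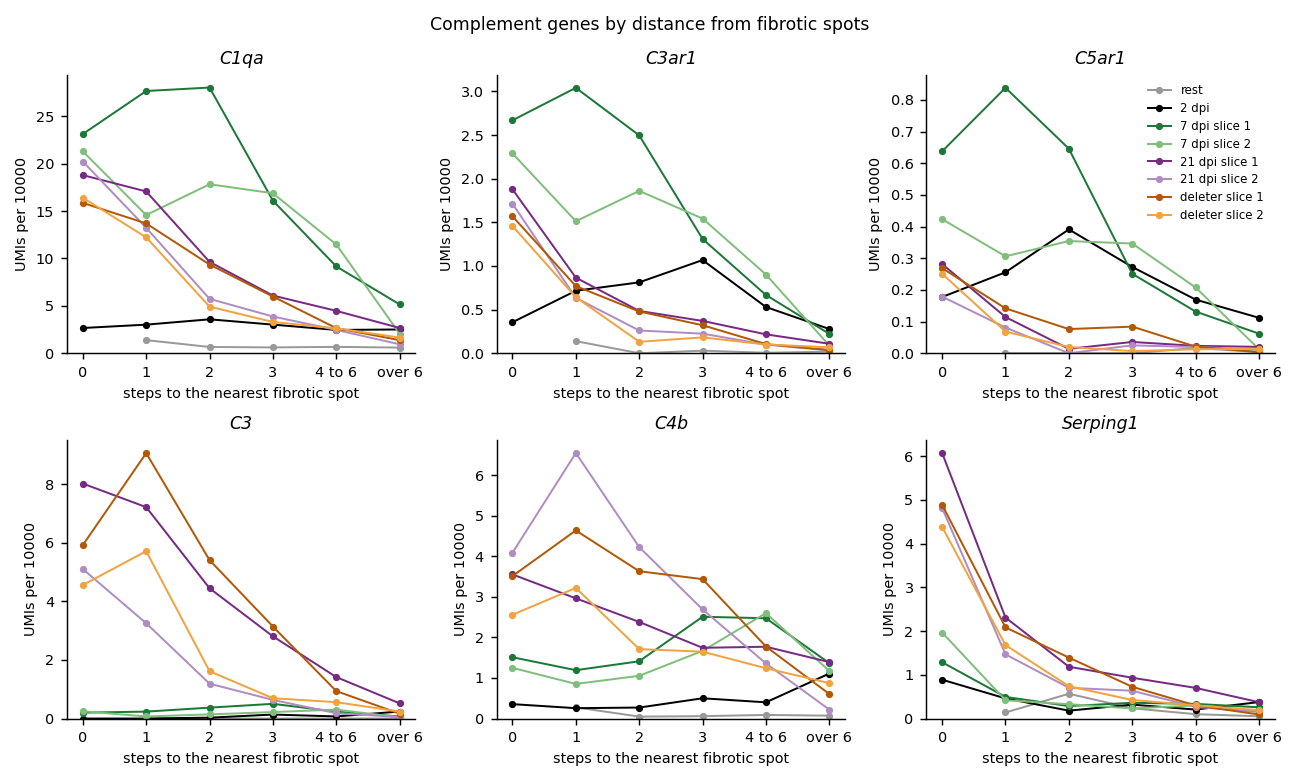
UMIs per 10000 (y axis) of 6 complement genes in spots 0 (fibrotic) to over 6 hexagonal steps (x axis) from the nearest fibrotic spot, 1 line per slice; points of fewer than 5 spots are left out. At 7 dpi C1qa is 28.0 and 17.8 at 2 steps, against 23.1 and 21.3 in fibrotic spots; at 21 dpi it is 9.64 and 5.74 against 18.8 and 20.2 in the WT slices.

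In fibrotic and near spots C3 was the member with the widest change between 7 and 21 dpi; in other spots C5ar1 differed more. At rest, 3 C3 UMIs were found among 16355749. In the slice at 2 dpi there were 249, with 0.201 UMIs per 10000 in other spots (95% Poisson interval 0.176 to 0.227, counting error only) and 7 UMIs in near spots. At 7 dpi fibrotic spots held 0.201 and 0.248 per 10000, near spots 0.370 and 0.130 and other spots 0.120 and 0.152. C3 was thus sparse and spread over all zones at that time. At 21 dpi the WT slices held 8.02 and 5.10 in fibrotic spots, 4.96 and 1.96 in near spots and 0.876 and 0.101 in other spots. Of the fibrotic spots, 12.5 and 20.4% carried a C3 UMI at 7 dpi, and 74.7 and 70.9% did at 21 dpi.

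The increase passed the test in fibrotic spots, with a log2 fold change of 4.82 at 21 against 7 dpi (SE 0.27, edgeR adjusted p = 1.27e-05). Of all 12912 genes tested there, 2.30% were higher at 21 dpi, and 4 of the 9 members were. In near spots C3 was higher by 3.80 (SE 0.57, adjusted p = 0.0135). There 0.714% of all genes were higher, and 2 of 9 members. The call in near spots was lost without 7 dpi slice 1, without 7 dpi slice 2 and with a Col1a1 minimum of 3, where the adjusted p reached 0.0762. In other spots the log2 difference was 1.90 (SE 0.88, adjusted p = 0.652), and it became -0.40 without 21 dpi WT slice 1. Deleter slice 1, with Xist RNA, had 5.92 per 10000 in fibrotic spots, and deleter slice 2, with Ddx3y RNA, had 4.56. Sex coincides with time in these WT slices, and its part in the C3 result was not tested. Some markers of several cell types were higher as well, but not whole lists in both zones. Of 6 reactive astrocyte markers, Lcn2 and Gfap were higher in fibrotic spots at 21 than at 7 dpi. That list summed to 24.4 and 22.0 per 10000 at 7 dpi and 40.7 and 34.9 at 21 dpi. Of 6 general astrocyte markers, Gfap, Slc1a3 and Aqp4 were higher. Of 7 macrophage markers, Mrc1 and Lyz2 were higher, and the median log2 fold change of that list was 0.07. Of 5 neutrophil markers 3 were tested, and S100a8 and S100a9 were higher too. All 3 plasma cell markers were higher, their sum being 0.106 and 0.0296 per 10000 at 7 dpi and 14.3 and 21.8 at 21 dpi, and so was Cd3d, the 1 T cell marker of 4 that was tested. In near spots, of these lists, all 3 plasma cell markers and Lcn2 were higher. The median log2 fold change of the reactive astrocyte markers was -0.16 there against 0.66 in fibrotic spots. Of the macrophage markers, Gpnmb and Cd68 were lower in near spots, and the median of that list was -0.70. The part of these cells in the C3 result was not tested.

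Within fibrosis at 21 dpi, C3 was higher in the spots enclosed by tissue. The fibrotic spots include a rim at the tissue surface, seen in the maps. They were split for this reason into edge spots, with fewer than 6 tissue neighbours, and interior spots. At 7 dpi, 77 of 112 and 72 of 392 fibrotic spots were edge spots. In the WT slices at 21 dpi, 59 of 170 and 47 of 203 were. Most fibrotic spots of 7 dpi slice 1 thus lay at the tissue surface. In interior spots at 21 dpi, C3 was 9.86 and 5.72 per 10000 in the WT slices and 7.43 and 5.51 in the deleter slices. In edge spots it was 1.72 and 1.23, and 1.15 and 0.316. All 4 slices at 21 dpi agree in direction. Serping1 differed less, with 6.14 and 4.86 in interior and 5.85 and 4.49 in edge spots of the WT slices. C1qa was 21.9 and 21.6 in interior and 8.12 and 11.5 in edge spots. At 7 dpi C3 differed little, at 0.226 and 0.263 in interior and 0.183 and 0.186 in edge spots. Serping1 at 7 dpi was higher in edge spots, at 1.36 and 3.11 against 1.18 and 1.69 in interior spots. This split was chosen after the maps had been seen and carries no test.

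**Figure D3:**
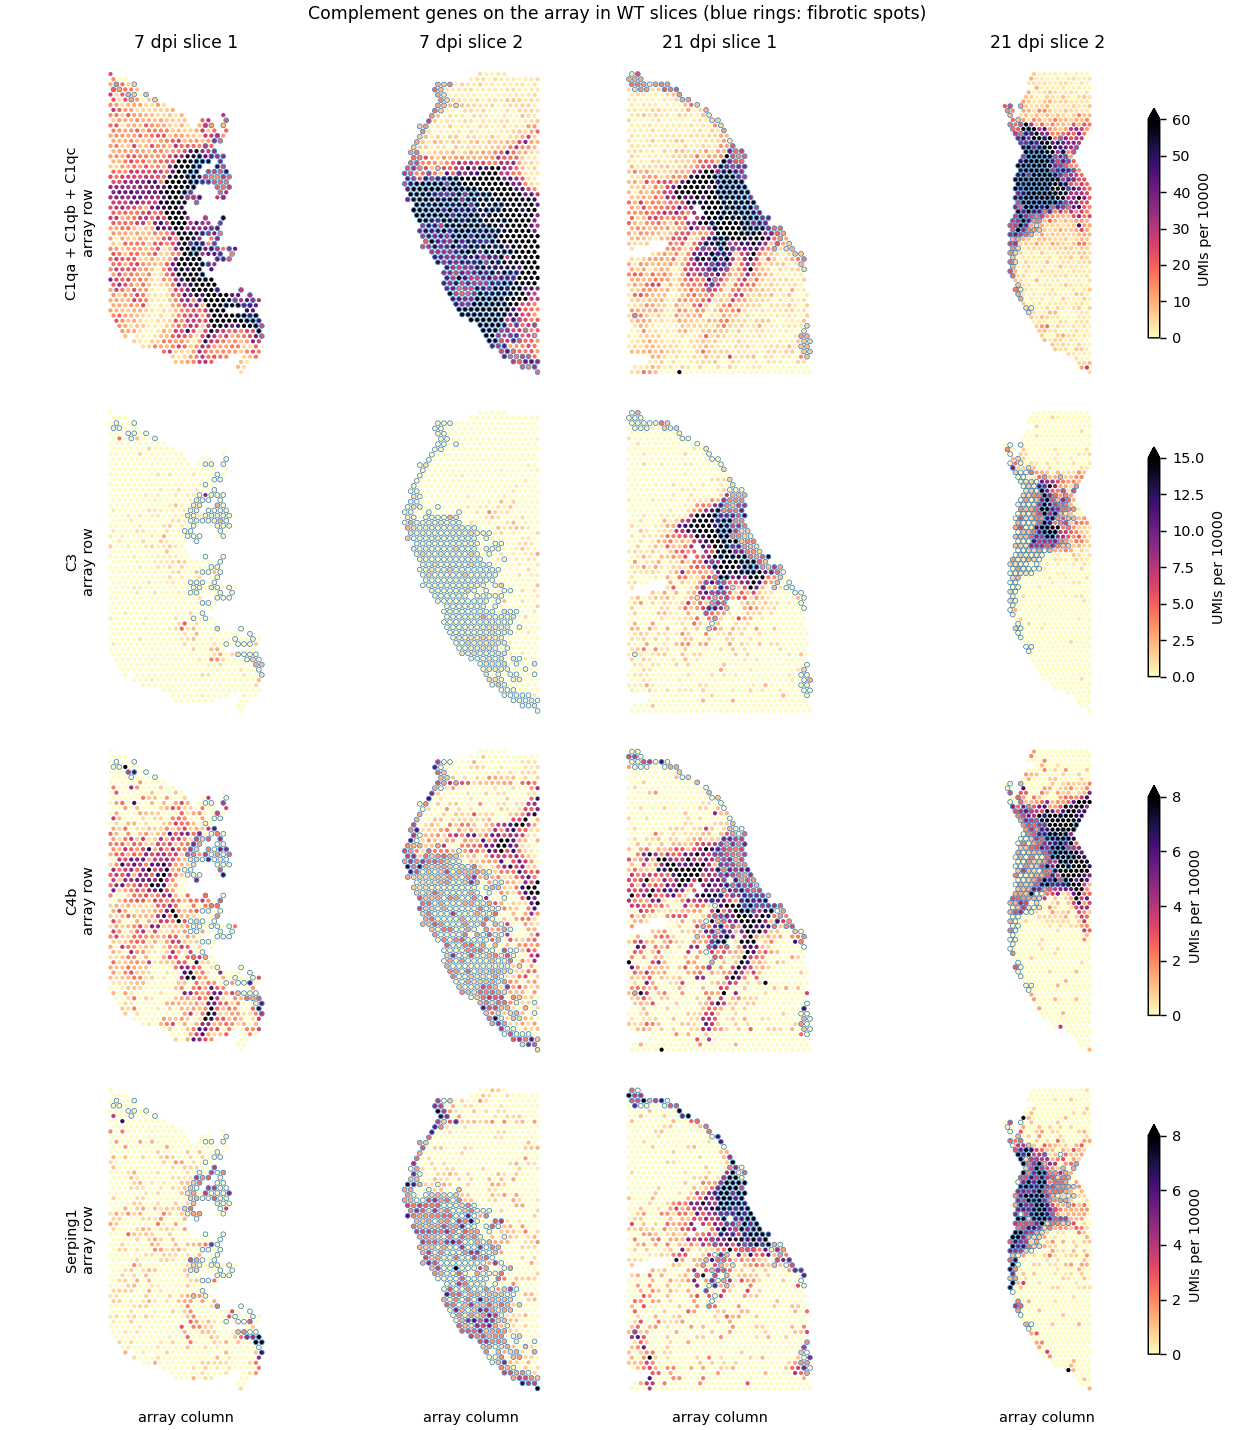
Spots of the 4 WT slices at 7 and 21 dpi at their array positions (columns and rows of the array, no unit), coloured by UMIs per 10000 of C1qa, C1qb and C1qc summed, C3, C4b and Serping1; scales end at 60, 15, 8 and 8. Blue rings mark fibrotic spots. C3 is sparse in both slices at 7 dpi and dense in and beside ringed spots at 21 dpi, while C4b also runs in bands through tissue without rings.

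Since C3 had the highest log2 fold change of the members between the times in fibrotic and in near spots, its promoter is shown as well. It covers the 250 bases before the RefSeq start (chr17:57228137-57228386, GRCm38.p6, minus strand), 5′ to 3′, with motif matches in capitals.
C3: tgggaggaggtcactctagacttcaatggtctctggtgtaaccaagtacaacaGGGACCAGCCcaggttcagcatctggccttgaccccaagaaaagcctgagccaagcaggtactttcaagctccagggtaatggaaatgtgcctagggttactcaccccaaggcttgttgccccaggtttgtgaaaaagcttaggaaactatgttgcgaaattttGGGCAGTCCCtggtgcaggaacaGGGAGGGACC
All 3 runs in capitals match the same NF-kB motif, the middle one on the opposite strand. The window holds no match to the other 3 motifs.

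Within slices, C3 was higher in fibrotic than in other spots by a log2 fold change of 2.58 (SE 0.39, edgeR adjusted p = 0.000182). This mean covers unequal times, since the fitted effect was 0.97 (SE 0.61) at 7 dpi and 4.18 (SE 0.50) at 21 dpi. The test of that difference gave 3.21 (SE 0.76, adjusted p = 0.103) and did not pass. Near spots exceeded other spots by 1.94 (SE 0.37, adjusted p = 0.00354). That call was lost without 7 dpi slice 1 and without the slice as a block, where the adjusted p reached 0.120. Fibrotic and near spots were not told apart (0.64, SE 0.38, adjusted p = 0.204), although without 21 dpi WT slice 1 the difference of 0.79 passed (adjusted p = 0.0242). At 1 step from fibrosis, C3 was even above its fibrotic level in both deleter slices, at 9.06 against 5.92 and 5.71 against 4.56 per 10000, and below it in both WT slices at 21 dpi, at 7.22 against 8.02 and 3.25 against 5.10. The genes most like C3 over the 23 sums were Cntf, a glial cytokine (r = 0.947), C530044C16Rik (r = 0.943) and Traf1, a signalling adaptor (r = 0.942).

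C4b encodes the component C4, which C1s cleaves. Mouse C4a is a near-identical neighbour, so reads may be split between the copies. C4a held 105 UMIs in all slices. In the slice values, the relation of C4b to fibrosis was not alike at 7 and 21 dpi. The test of that difference did not pass (edgeR adjusted p = 0.136 for fibrotic against other spots). At rest C4b was 0.0726 per 10000 in other spots, and at 2 dpi 0.946. In the slices at 7 dpi C4b was lower in fibrotic than in other spots, at 1.51 and 1.25 against 1.71 and 1.78. Near spots held 1.70 and 1.12, above the fibrotic level in slice 1 and below it in slice 2. At 21 dpi the WT slices held 3.55 and 4.09 in fibrotic, 2.40 and 4.86 in near and 1.54 and 0.647 in other spots.

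Between the times, C4b in fibrotic spots was higher at 21 dpi by 1.49 on the log2 scale (SE 0.18, edgeR adjusted p = 0.00201). The difference in near spots was 1.33 (SE 0.35, adjusted p = 0.0814), or 1.74 (adjusted p = 0.00450) without 21 dpi WT slice 1, and in other spots it was -0.65 (SE 0.38, adjusted p = 0.713). Over both times fibrotic spots exceeded other spots by 0.77 (SE 0.28, adjusted p = 0.0310). That call was lost without 7 dpi slice 1, without 7 dpi slice 2, with DESeq2 and with a Col1a1 minimum of 10, where the adjusted p reached 0.368. Near against other spots gave 0.68 (SE 0.27, adjusted p = 0.0939), and 1.27 (adjusted p = 2.23e-05) without 21 dpi WT slice 1. Fibrotic against near spots gave 0.09 (SE 0.28, adjusted p = 0.824), and 0.38 (adjusted p = 0.0468) without 21 dpi WT slice 2. The maps show C4b in bands of tissue away from fibrosis. At 4 to 6 steps it was 2.47 and 2.60 per 10000 at 7 dpi, above its fibrotic level in both slices. The genes whose pattern over the 23 sums came closest to C4b were P4ha3 (r = 0.914), Padi2 (r = 0.907) and Abhd4 (r = 0.90), a looser match than for the C1q genes.

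C1ra encodes a C1r protease, and Serping1 the inhibitor that binds C1r and C1s. C1rb, a near-identical copy of C1ra, held 3 UMIs in all slices, and reads of the pair cannot be assigned with certainty. Both genes were higher in fibrotic than in other spots, and higher in fibrotic spots at 21 than at 7 dpi. Serping1 stood in fibrotic spots at 1.29 and 1.97 per 10000 at 7 dpi and at 6.07 and 4.81 at 21 dpi, against 0.344 to 1.52 in near and 0.193 to 0.504 in other spots of the same 4 slices. C1ra was 0.0827 and 0.225 in fibrotic spots at 7 dpi, from 7 and 99 UMIs, and 0.680 and 0.610 at 21 dpi, from 152 and 174.

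Fibrotic against other spots gave 3.42 on the log2 scale for Serping1 (SE 0.18, edgeR adjusted p = 1.33e-07) and 3.42 for C1ra (SE 0.23, adjusted p = 5.12e-07). Both were above near spots too, by 2.22 for Serping1 (SE 0.18, adjusted p = 9.83e-06) and by 2.22 for C1ra (SE 0.23, adjusted p = 3.31e-05). Their sizes were not compared with those of the other members in a test. Of all Serping1 UMIs, 20.4 and 77.6% fell in fibrotic spots at 7 dpi, where 5.64 and 32.5% of all UMIs lay. In the WT slices at 21 dpi these shares were 52.5 and 76.7%, beside 12.8 and 25.2% of all UMIs. At 21 against 7 dpi, Serping1 in fibrotic spots was higher by 1.71 (SE 0.21, adjusted p = 0.00229) and C1ra by 1.79 (SE 0.28, adjusted p = 0.00729). In near spots Serping1 was higher by 1.79 (SE 0.24, adjusted p = 0.00967), a call lost without 7 dpi slice 1 and with a Col1a1 minimum of 3. C1ra there was 1.30 (SE 0.35, adjusted p = 0.0918). At rest, the 60 spots near the few fibrotic ones held 21 Serping1 UMIs, 0.336 per 10000 (95% Poisson interval 0.208 to 0.513), and the other spots 0.0573 (0.0461 to 0.0704). This slice has no replicate.

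The nearest neighbours of Serping1 over the 23 sums were the class II histocompatibility genes H2-Aa (r = 0.984) and H2-Eb1 (r = 0.974) and Txnip (r = 0.976). For C1ra they were Cpxm2 (r = 0.966), the complement protease gene C2 (r = 0.962) and Fndc1 (r = 0.961). Serping1 with C1ra gave r = 0.908. All 6 fibroblast markers, all 7 macrophage markers and all 4 endothelial markers were higher in fibrotic than in other spots, as were 31.4% of all genes. Col1a1, by which the zones were set, is 1 of the fibroblast markers, so its call was fixed in advance. Between the times 2 of 6 fibroblast markers (Dcn and Lum) and 2 of 7 macrophage markers (Mrc1 and Lyz2) were higher at 21 dpi in fibrotic spots. So were 2.30% of all genes. The median log2 fold change was 0.56 over the fibroblast list and 0.07 over the macrophage list. The part of these cells in the Serping1 and C1ra values was not tested.

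C3ar1 and C5ar1 encode the receptors for the C3a and C5a fragments, found on myeloid cells. Both were higher in fibrotic and in near spots than in other spots, and in near spots both were lower at 21 than at 7 dpi. C3ar1 stood at 2.67 and 2.29 per 10000 in fibrotic and 2.29 and 1.62 in near spots at 7 dpi, and at 1.88 and 1.71 in fibrotic and 0.590 and 0.418 in near spots at 21 dpi. C5ar1 in fibrotic spots stood at 0.638 and 0.423 at 7 dpi, compared with 0.282 and 0.179 at 21 dpi. In near spots C5ar1 fell from 0.580 and 0.331 to 0.0576 and 0.0428. At 2 dpi both already stood higher in near than in other spots, at 0.909 against 0.336 for C3ar1 and 0.310 against 0.125 for C5ar1, in 1 slice and with near spots of low depth. At rest there were 28 C3ar1 and 8 C5ar1 UMIs in the whole slice.

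Fibrotic against other spots gave 3.43 on the log2 scale for C3ar1 (SE 0.18, edgeR adjusted p = 1.29e-07) and 3.16 for C5ar1 (SE 0.20, adjusted p = 3.86e-07). Near against other spots gave 2.27 (SE 0.18) and 1.90 (SE 0.23). From 7 to 21 dpi both fell in near spots, C3ar1 by 1.98 on the log2 scale (SE 0.26, adjusted p = 0.00961) and C5ar1 by 3.16 (SE 0.36, adjusted p = 0.00649). Of all 13305 genes tested in near spots, 3.28% were lower at 21 dpi, and 3 of the 9 members were, C1qc being the third. The C3ar1 call was lost without 7 dpi slice 1, with an adjusted p of 0.0685. In fibrotic spots the differences were -0.46 (SE 0.17, adjusted p = 0.198) and -1.13 (SE 0.28, adjusted p = 0.0599) and did not pass, although without 21 dpi WT slice 1 C5ar1 did (-1.47, adjusted p = 0.000103). In other spots they were -1.86 (SE 0.42, adjusted p = 0.357) and -2.25 (SE 0.35, adjusted p = 0.276), and without 21 dpi WT slice 1 C3ar1 passed there (-2.77, adjusted p = 0.0434).

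C3ar1 ran most closely with Lilrb4a, an inhibitory myeloid receptor (r = 0.996), Capg (r = 0.992) and Vav1 (r = 0.990), and C5ar1 with Msr1, the macrophage scavenger receptor (r = 0.977), Rab32 (r = 0.976) and Adam8 (r = 0.975). The receptors correlated with each other (r = 0.928) and, as a description over the same 23 sums, hardly with C3 (r = 0.399 for C3ar1 and 0.0912 for C5ar1). Of 6 macrophage markers tested in near spots, Gpnmb and Cd68 fell over the same interval, beside 3.28% of all genes. That list summed to 30.6 and 27.2 per 10000 there at 7 dpi and 19.2 and 13.9 at 21 dpi, and its part in the receptor values was not tested.

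**Figure D4:**
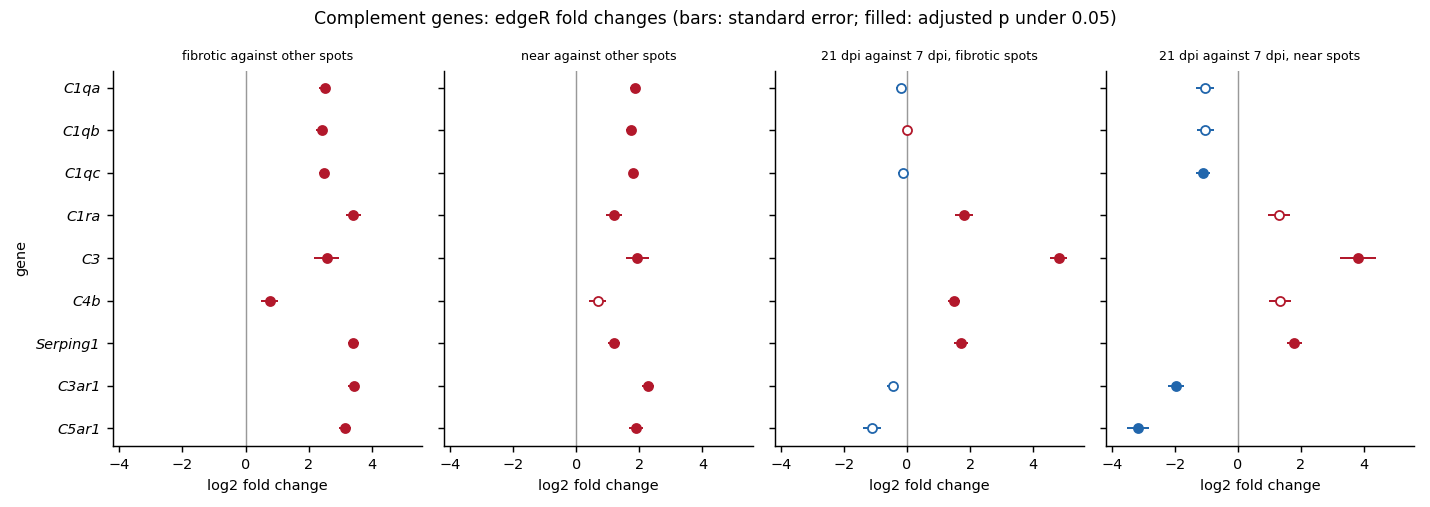
Log2 fold changes (x axis) of the 9 complement genes (y axis) from edgeR, in fibrotic and near against other spots over the 4 WT slices at 7 and 21 dpi and at 21 against 7 dpi in fibrotic and near spots. Bars are standard errors, red is above 0 and blue below, and filled points passed an adjusted p of 0.05. C3, Serping1, C1ra and C4b lie on the right in both time panels, from 1.30 to 4.82, and C3ar1 and C5ar1 on the left.

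Set side by side in fibrotic and in near spots, the members split by time into those that stood higher and those that stood lower at 21 dpi. In near spots, C1ra, C3, C4b and Serping1 were higher in both WT slices at 21 dpi than in either slice at 7 dpi, and the 3 C1q genes and both receptors were lower in both. Of all genes tested, 28.8% were higher without overlap in the same way and 24.2% lower. In fibrotic spots the same 4 were higher and C1qa, C1qc, C3ar1 and C5ar1 were lower, whereas the C1qb values overlapped. There 23.3% of all genes were higher without overlap and 24.5% lower. Not all of these differences passed the test, as given above. The split did not hold in other spots, where C4b stood lower in both WT slices at 21 dpi and C3 and Serping1 overlapped. In other spots no member passed with edgeR (0.0206% of all genes did), although 5 of 9 had an unadjusted p under 0.05 (8.1% of all genes did) and DESeq2 called 5 (0.983% of all genes), the C1q genes and both receptors, all lower at 21 dpi.

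Whether the zone differences themselves changed with time was tested as an interaction. Fibrotic minus other was larger at 21 than at 7 dpi for all 9 members, by 1.05 to 3.21 on the log2 scale. None passed with edgeR, the adjusted p-values lying between 0.103 and 0.295, while all 9 had an unadjusted p under 0.05 (13.9% of all genes did) and DESeq2 called 6 (1.3% of all genes). Without 21 dpi WT slice 1, edgeR called 7 (5.65% of all genes). Of all genes 0.199% passed with edgeR. For near minus other spots, no member and no gene passed with edgeR (0%). There 3 members had an unadjusted p under 0.05 (C3, C4b and Serping1, against 7.84% of all genes), and DESeq2 called 0 members and 0.151% of all genes.

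In deleter against WT slices at 21 dpi, no member passed in any zone. In fibrotic spots the C1q genes, C4b and C3ar1 were lower in both deleter slices than in either WT slice, C1qa at 15.9 and 16.4 against 18.8 and 20.2 per 10000. Of all genes tested, 19.9% were lower without overlap in this way and 17.6% higher. The log2 fold changes were -0.27 (SE 0.10) for C1qa, -0.31 (SE 0.10) for C1qb and -0.31 (SE 0.12) for C1qc, with an edgeR adjusted p of 0.715 for each. These 3 had an unadjusted p under 0.05, as did 6.94% of all genes, and DESeq2 called 0 members and 0.0618% of all genes. The other 6 members ranged from -0.33 to 0.20. Of all genes 0.00772% passed in fibrotic spots and 0% in near and in other spots. In those 2 zones no member had an unadjusted p under 0.05, against 2.45 and 3.18% of all genes, and DESeq2 called 0 members, against 0.0362 and 0.0558%. In near spots C3 was 6.31 and 2.92 per 10000 in the deleter slices and 4.96 and 1.96 in the WT slices, which overlap.

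The remaining complement genes were read from a list of 52, of which 30 were tested in the zone comparisons. In fibrotic against other spots, 17 were higher and 7 lower, where 31.4% of all genes were higher and 32.2% lower, with a median log2 fold change of 1.67 against -0.03 over all genes. The 5 that rose most were C1s1, the C1s protease gene (4.17, SE 0.29), Cfi, the C3b-cleaving factor I (4.07, SE 0.61), Cfb, the alternative pathway protease (4.05, SE 0.29), C2 (3.78, SE 0.20) and Itgax, a chain of a C3-fragment receptor (3.57, SE 0.24). Itgb2, a chain shared by the C3-fragment receptors, was higher as well (2.91, SE 0.17). The 5 that fell most were Sez6 (-1.97, SE 0.14), Susd4 (-1.78, SE 0.16), Csmd3 (-1.68, SE 0.26), Csmd2 (-1.54, SE 0.22) and Csmd1 (-1.20, SE 0.20), genes with complement control domains that are known from neurons. In near against other spots 13 were higher and 2 lower (14.6 and 12.1% of all genes), and in fibrotic against near spots 16 were higher and 6 lower (21.2 and 22% of all genes).

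At 21 against 7 dpi, C1s1 and Clu were higher in fibrotic spots, by 1.91 (SE 0.25, edgeR adjusted p = 0.00323) and 1.33 (SE 0.21, adjusted p = 0.00812), of 26 listed genes tested. Of all genes tested in fibrotic spots, 2.30% were higher. Clu encodes clusterin, an inhibitor of the membrane attack complex. Over both times Clu was lower in fibrotic than in other spots (-0.43, SE 0.17, edgeR adjusted p = 0.0454). In near spots C1s1 was higher by 2.58 (SE 0.39, adjusted p = 0.0144) and Clu by 1.17 (SE 0.24, adjusted p = 0.0382), whereas Itgam, a chain of the C3-fragment receptor CR3, fell by 1.61 (SE 0.27, adjusted p = 0.0190) and Cd93 fell by 1.44 (SE 0.31, adjusted p = 0.0412). Of all genes tested in near spots, 0.714% were higher and 3.28% lower. No listed gene passed in the other time, interaction or deleter comparisons. RNA of the late, membrane-attacking components was scarce. In all 8 slices together there were 128 UMIs of Hc, which encodes C5, 27 of C6 and 2 of C7. There were 1 of C8a, 0 of C8b, 195 of C8g and 2 of C9. C8g was called higher in fibrotic than in near spots (1.86, SE 0.49, edgeR adjusted p = 0.0104). Against other spots it was not called (1.00, SE 0.41, adjusted p = 0.0524).

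**Figure D5:**
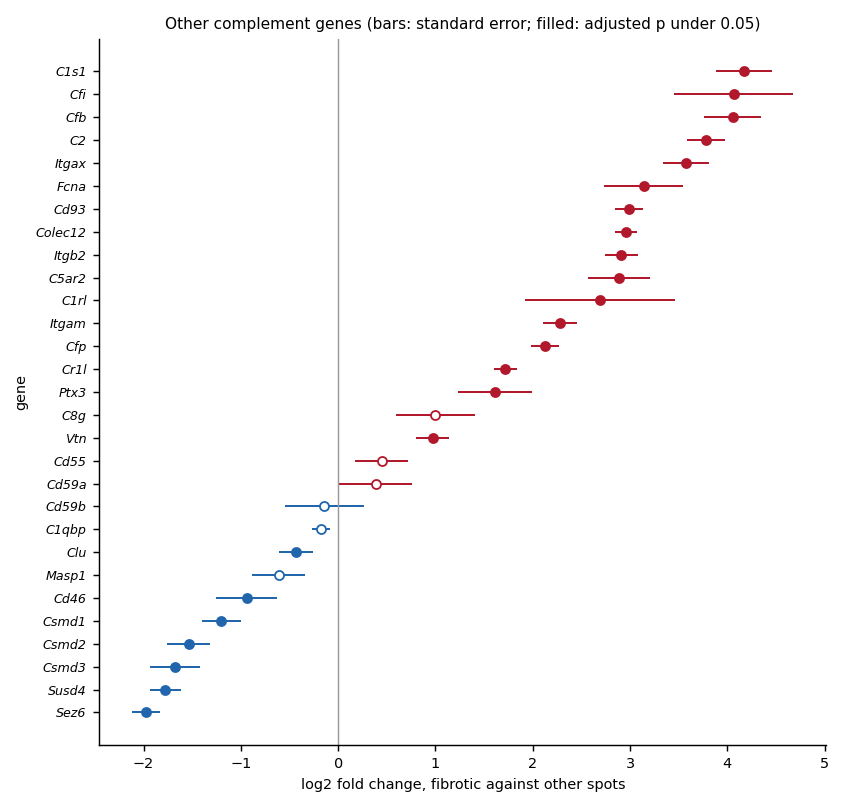
Log2 fold changes with standard errors (x axis) of 29 tested complement genes outside the 9 members (y axis), in fibrotic against other spots of the 4 WT slices at 7 and 21 dpi. Filled points passed an edgeR adjusted p of 0.05; 16 of them lie above 0, led by C1s1 at 4.17, and 7 below, led by Sez6 at -1.97.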

How the data were processed

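The authors aligned Visium reads to mm10 with Space Ranger 2.0.0 and deposited, for each spot and gene, UMI counts without normalization, which were used as counts here. The deposited spot positions are other numbers and served only to place spots. In each of the 4 capture areas, touching tissue spots formed 2 pieces, each taken as 1 slice and 1 mouse. Levels are UMIs per 10000 UMIs of a zone. Exact Poisson intervals (95%) cover counting error only, and spots were neither deconvolved nor filtered for doublets.

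Counts were summed per slice and zone and tested on all genes with edgeR 4.0.16 in R 4.3.3 (TMM, filterByExpr, quasi-likelihood F test, Benjamini-Hochberg, threshold 0.05). The zone fit held 12 sums of 4 WT slices with slice as a block and zone by time. Time and deleter comparisons set 2 slices against 2. SEs are the log2 fold change over the square root of F. DESeq2 1.42.0 was an alternative, besides Col1a1 minima of 3 and 10 per 10000, at least 2 Col1a1 UMIs, spots of at least 1000 UMIs, near spots of 1 or 2 steps, no TMM, no filter, deleter slices added, no block, and each slice left out. On simulated counts with 200 genes changed 4-fold (dispersion 0.05), 100% were recovered for fibrotic against other spots (14159 genes), 62.5% for its interaction with time (14122 genes), 94.5% for 21 against 7 dpi (12679 genes) and 95.5% for deleter against WT (12745 genes), both in fibrotic spots. Of the calls, 3.38, 8.09, 5.5 and 3.05% were false, in the same order. The dispersion was set and not estimated from these slices, and each unchanged gene had 1 mean rate in all sums. The real slices also differ in sex, area and tissue, so recovery in them can be lower. Changes smaller than 4-fold were not simulated. Only genes above a minimum count were changed, so recovery of sparse genes such as C1ra was not measured. Time and deleter comparisons in near and other spots were not simulated.

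Members, gene lists and tests were chosen with earlier results of these data known. Named genes were the 9 members, up to 5 listed complement genes per direction and comparison, and for each member the 3 genes with the highest Pearson r among those with at least 200 UMIs. The split into edge and interior fibrotic spots, and Itgb2, C4a, C1rb and the late components, were chosen after their values were seen. Genes were placed by GENCODE M21 (GRCm38), and promoters from RefSeq (GRCm38.p6) for 6 of 9 members. C1qa, C4b and Serping1 had no entry. Some genes of the lists are counted but not reported by name here.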

Additional observations from a re-analysis of the deposited data

Results flagged for a closer look

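The slice values of C4b differed in direction between the times, but the tests of that difference did not pass. Fibrotic against other spots lay below 1 in both slices at 7 dpi (0.886- and 0.703-fold) and above 1 in both WT slices at 21 dpi (2.30- and 6.32-fold). The fitted effect was -0.28 (SE 0.39) at 7 dpi and 1.82 (SE 0.39) at 21 dpi. The difference between the times was 2.10 on the log2 scale, and its edgeR adjusted p was 0.136. Near against other spots gave 0.998- and 0.63-fold at 7 dpi, 1.55- and 7.5-fold at 21 dpi, a difference of 1.98 and an adjusted p of 0.425. The fitted near effects were -0.31 (SE 0.38) at 7 dpi and 1.67 (SE 0.40) at 21 dpi.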

How the results depend on the processing

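The 4 members called higher at 21 dpi in fibrotic spots (C3, C1ra, C4b and Serping1) were called in every setting run. In fibrotic against near spots the 7 calls fell to 4 with a Col1a1 minimum of 10 and ranged from 4 (without 7 dpi slice 2) to 8 with 1 slice left out. The interaction of fibrotic against other spots with time had 0 calls, but 7 with a Col1a1 minimum of 3, without the filter or with deleter slices added, 6 with DESeq2, and 0 to 7 with 1 slice left out. For near against other spots it was 3 without the filter, 1 with deleter slices added, and 0 to 3 with 1 slice left out. The 5 calls at 21 against 7 dpi in near spots became 3 with a Col1a1 minimum of 3, 9 without the filter, 8 with DESeq2 or deleter slices added, and 1 (without 7 dpi slice 1) to 6 with 1 slice left out. In other spots 0 became 5 without the filter, with DESeq2 or with deleter slices added, and 0 to 1 with 1 slice left out. Over all genes, calls ranged from 1277 to 5654 (main 3890) for near against other spots, 2995 to 7774 (6302) for fibrotic against near, 0 to 1135 (29) and 0 to 386 (0) for the 2 interactions, 236 to 1123 (503), 37 to 1615 (531) and 2 to 321 (3) for 21 against 7 dpi in fibrotic, near and other spots, and 0 to 270 (1), 0 to 16 (0) and 0 to 8 (0) for deleter against WT.

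Some log2 differences changed sign. C4b in fibrotic against near spots was -0.23 with a Col1a1 minimum of 10 and -0.079 to 0.38 with 1 slice left out. In the near interaction with time, C3ar1 was 0.44 with a Col1a1 minimum of 10, 0.085 with near spots of 1 or 2 steps and -0.51 to 0.49 with 1 slice left out, C1qb -0.12 to 0.61 and C1qc -0.069 to 0.67. At 21 against 7 dpi, C1qb in fibrotic spots was -0.0015 with at least 2 Col1a1 UMIs, -0.17 with deleter slices added and -0.0032 to 0.011 with 1 slice left out, Serping1 in other spots -0.28 with a Col1a1 minimum of 3 and -0.37 to 0.99, and C3 in other spots -0.40 to 2.70. For deleter against WT in fibrotic spots, C3 was -0.61 to 0.045 and C5ar1 -0.11 to 0.54 with 1 slice left out. For deleter against WT in near and other spots, where no member passed, the sign of all members but C1qc in near spots changed between settings, C3 running from -0.19 to 1.31 and from -0.90 to 2.20. The causes were not tested. Depth limits C1ra and C5ar1 most, as C1ra in fibrotic spots of 7 dpi slice 1 rests on 7 UMIs.

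The 3 zones of a slice are paired by that slice, and the zone fit holds this as a block. Without the replicate block, near against other spots for C3 was 1.82 (adjusted p = 0.0502) and fibrotic against near spots for C1qa 0.61 (adjusted p = 0.0513), both lost calls, and no other member's zone call was lost. Slice numbers were given within an area and pair nothing between areas.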
